A study of Mus musculus with 135 samples.

Results

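The Polycomb group genes described here are *Ezh1*, *Ezh2*, *Eed*, *Suz12* and *Jarid2* of Polycomb repressive complex 2 (PRC2), *Bmi1*, *Cbx7*, *Ring1* and *Rnf2* of Polycomb repressive complex 1 (PRC1), and *Asxl1* of the Polycomb repressive deubiquitinase complex (PR-DUB). They were chosen by name, and all 10 were among the 15181 genes with RefSeq read counts. Single haematopoietic stem cells (HSCs) were sorted from bone marrow of C57BL/6 Vwf-eGFP reporter mice as viable (7AAD-) lineage-negative cells that were Sca-1+, c-Kit+ and CD150+ but CD48-, and their polyadenylated RNA was sequenced after capture on the Fluidigm C1 system. The young group was 1 mouse of 2 to 3 months and the old group 1 mouse of 20 to 25 months, with no treatment in either. Both mice carried the reporter, a transgene in which *Vwf* regulatory sequences drive eGFP, and the sort did not select on it. The table held 61 young and 74 old cells, of which 52 young and 62 old cells passed the study's quality limits and were used.

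Polycomb proteins keep genes repressed through chromatin. PRC2 methylates lysine 27 of histone H3 (H3K27) through EZH1 or EZH2, with EED and SUZ12 as obligatory partners and JARID2 as an accessory subunit. PRC1 ubiquitinates histone H2A through RING1 or RNF2 together with a PCGF protein such as BMI1, and chromobox proteins such as CBX7 bind the methylated H3K27. PR-DUB removes the H2A ubiquitin, with ASXL1 as a cofactor of the BAP1 enzyme. In the haematopoietic system BMI1 and EZH1 are known for the maintenance of HSCs, EZH2 for its expression in dividing cells, and *ASXL1* as a gene often mutated in the blood cells of elderly people.

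Each age was a single mouse on a single capture run, so cells are not replicates, no test between ages was possible, and age cannot be told apart from mouse, run or sex. *Xist* was detected above the limit given below in 50 young and 8 old cells, whereas the Y-linked *Eif2s3y* was found in 0 young cells, where a limit of 3 cells for a count of 0 allows a share of up to 5.77%, and in 42 old cells. Counted reads per cell ranged from 273236 to 5688706 in young cells (median 2798990) and from 276316 to 4086659 in old cells (median 2116024). Of the HSC markers, *Kit* was expressed by 49 young and 61 old cells, *Hlf* by 49 and 55 and *Mecom* by 43 and 40. *Ly6a* was detected in 28 young and 43 old cells, *Procr* in 11 and 24, and *Slamf1*, which encodes CD150, in 9 and 15. *Cd48*, whose product the sort excluded, was expressed in 1 young and 0 old cells. For a count of 0 in old cells, the same limit of 3 cells is a share of 4.84%. Of the erythroid genes, *Hba-a1* had no read in either age, and *Klf1* was expressed in 2 young and 0 old cells. Of the megakaryocyte genes, *Itga2b* was expressed in 13 young and 17 old cells, *Pf4* in 5 and 11, *Ppbp* in 2 and 2 and *Gp1bb* in 1 and 2. Of the markers of mature cells, *Lyz2* was expressed in 43 cells of each age, *Cd79b* in 12 young and 16 old cells, *Cd3d* in 16 of each and *Mpo* in 2 and 1, and their part in the results below was not tested.

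Levels are given as log2(CPM + 1), where CPM is counted reads per 1000000 of the cell's total, and a cell was called expressing above 2 on this scale. Fewer than 50% of the cells expressed the gene for 7 of the 10 genes in young and 8 of the 10 in old HSCs, and each gene ranged from no read to a high level among cells of the same mouse. Such shares were common in these data. The median share of expressing cells was 32.5% over the 9374 genes that at least 10% of the cells expressed, and 17.5% over the 15014 genes with any count. The share of expressing cells lay between 1.92% (*Ring1*) and 63.5% (*Suz12* and *Jarid2*) in young HSCs and between 8.06% (*Ring1*) and 67.7% (*Suz12*) in old HSCs. Of the 10 genes, 9 were expressed in over 10% of all cells used, and *Ring1* was not. The 95% Clopper-Pearson intervals of these shares, which cover counting error only, overlapped between young and old for every one of the 10 genes. The share of all genes with such an overlap was not counted, so the overlap is not read as a trait of the 10.

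**Figure D1:**
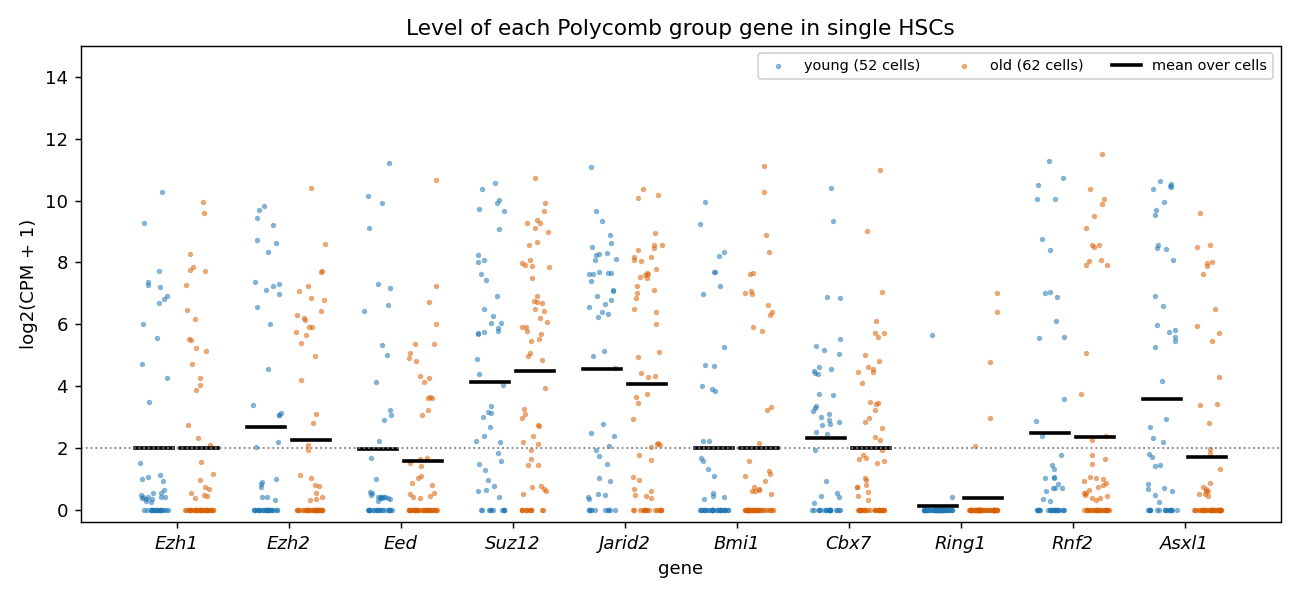
Level of each Polycomb group gene in single HSCs, with 1 point per cell on the log2(CPM + 1) axis, young cells in blue (n = 52) and old cells in orange (n = 62), the mean over cells as a black bar and the limit of 2 for an expressing cell as a dotted line. Every gene has cells at 0 in both ages, and the young and old points overlap for each gene, with the widest gap between means at *Asxl1* (3.59 and 1.71).

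**Figure D2:**
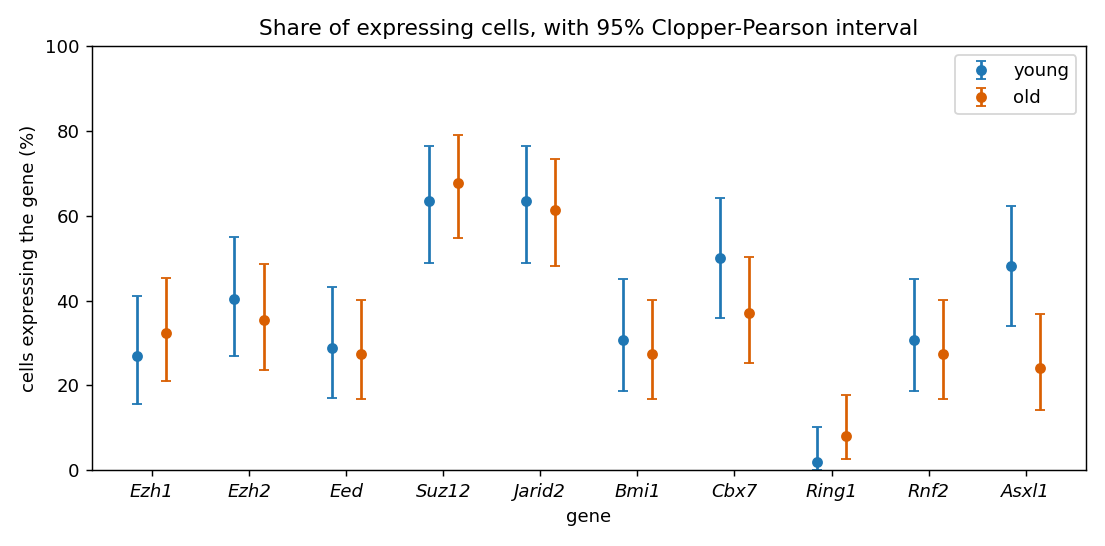
Percentage of HSCs expressing each Polycomb group gene, with points for young (blue, n = 52) and old (orange, n = 62) cells and bars for the 95% Clopper-Pearson interval. *Suz12* and *Jarid2* lie above 60% in both ages, *Ring1* lies below 10%, and the largest distance between ages is at *Asxl1* (48.1% and 24.2%).

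To compare levels between genes, CPM was divided by the summed exon length in kilobases before the logarithm. On this scale, as the average of the young and old means of log2(CPM per kilobase + 1), *Suz12* was highest at 2.90, followed by *Jarid2* at 2.68, *Ezh2* at 1.88, *Rnf2* at 1.79, *Asxl1* at 1.58, *Eed* at 1.42, *Cbx7* at 1.40, *Bmi1* at 1.39, *Ezh1* at 1.16 and *Ring1* at 0.20. Neighbours in this order differed by less than the standard deviation over cells of the higher gene. The PRC2 subunits *Suz12* and *Jarid2* therefore stood at the top of the order and *Ring1* at its bottom, with the other 7 genes between.

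Between ages, the difference in mean log2(CPM + 1), taken as old minus young, had a median of −0.22 over the 10 genes, beside −0.07 over the 9374 genes that at least 10% of the cells expressed. *Asxl1* was the only one of the 10 genes that was lower by at least 1 in old HSCs, beside 6.98% of the 9374 genes, and 0 of the 10 were higher by at least 1, beside 6.24%. Over the 15014 genes with any count, the shares were 4.49% lower and 3.91% higher. The members' counts are close to what the background would give for 10 genes. When reads were instead summed over the cells of an age, *Ezh2*, *Eed* and *Asxl1* passed the same size in the lower direction and *Ring1* in the higher. The share of all genes past that size by summed reads was not counted, so this result has no background beside it. The differences of *Ezh1*, *Bmi1*, *Rnf2* and *Ring1* changed sign with the cells or the scaling used, so no direction is given for them, and those of *Ezh2* and *Eed* changed sign in cells without cycle transcripts (values below).

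*Ezh1* and *Ezh2*, which encode the alternative methyltransferases of PRC2, were each found in about the same share of young and old HSCs. *Ezh1* (chr11:101191115-101226463 on GRCm38) ranged from 0 to 10.27 with a median of 0.42 in young cells and from 0 to 9.96 with a median of 0.00 in old cells. The gene passed the limit in 14 young cells (26.9%, 95% interval 15.6 to 41.02) and 20 old cells (32.3%, 20.9 to 45.3), and its mean level was 2.01 ± 3.03 and 1.99 ± 2.97 (SD over cells). *Ezh2* (chr6:47530274-47595270) ranged from 0 to 9.81 with a median of 0.42 in young cells and from 0 to 10.42 with a median of 0.16 in old cells. It was expressed in 21 young cells (40.4%, 27.01 to 54.9) and 22 old cells (35.5%, 23.7 to 48.7), with mean levels of 2.66 ± 3.51 and 2.27 ± 3.06. For both genes, cells of either age ranged over nearly the same levels, and the difference between means (−0.02 and −0.40) was small beside the spread over cells.

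Cells in which both *Ezh1* and *Ezh2* were detected were few. Both were expressed in 4 young and 8 old cells, beside 5.65 and 7.10 cells if the 2 genes were found independently. *Ezh1* alone was expressed in 10 young and 12 old cells, and *Ezh2* alone in 17 and 14. Neither was expressed in 21 young cells (40.4%, 95% interval 27.01 to 54.9) and 28 old cells (45.2%, 32.5 to 58.3). At least 1 read of a gene is a looser measure than an expressing cell: *Ezh1* then had reads in 32 young and 29 old cells and *Ezh2* in 28 and 31, so that an undetected transcript at this depth does not show that it was absent.

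*Ezh2* was expressed by a larger share of the cells with cell cycle transcripts than of those without. Cells were divided by whether they expressed any of *Ccna2*, *Ccnb1*, *Cdk1* and *Cdc25c*, the cycle regulators that the study examined on these cells, which was so for 27 of the 52 young and 13 of the 62 old cells. In young HSCs, *Ezh2* was expressed in 17 of the 27 cells with such a transcript (62.96%, 95% interval 42.4 to 80.6) and in 4 of the 25 without (16%, 4.54 to 36.1). In old HSCs, the shares were 9 of 13 (69.2%, 38.6 to 90.9) and 13 of 49 (26.5%, 14.9 to 41.1). The mean *Ezh2* level was 4.29 ± 3.76 with and 0.91 ± 2.16 without a cycle transcript in young cells, and 3.77 ± 2.75 and 1.87 ± 3.04 in old cells. Because most old cells had no such transcript, 13 of the 22 old cells with *Ezh2* were among those without. *Ezh1* was expressed in 7 of 27 and 7 of 25 young cells and in 4 of 13 and 16 of 49 old cells. *Eed* was divided like *Ezh2* in young cells, with 12 of 27 and 3 of 25 cells and means of 2.66 ± 3.23 and 1.21 ± 2.97, but not in old cells (4 of 13 and 13 of 49, means of 1.69 and 1.56). The means with and without a cycle transcript were 4.84 and 3.35 for *Suz12* and 4.19 and 2.95 for *Asxl1* in young cells, and 4.99 and 4.34 and 2.31 and 1.55 in old cells. *Cbx7* (1.63 and 3.09) and *Rnf2* (1.61 and 3.41) had the lower mean in young cells with such a transcript. In old cells the means with and without were 2.10 and 1.99 for *Cbx7* and 1.43 and 2.61 for *Rnf2*.

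The old and young mice differed in their share of cells with cycle transcripts. The age difference of *Ezh2* had another sign in cells without such transcripts than over all cells used, and the reason was not tested. Over all cells used, the mean *Ezh2* level was 0.40 lower in old HSCs, whereas among cells with none of the 4 transcripts it was 0.96 higher in old (1.87 ± 3.04, n = 49) than in young cells (0.91 ± 2.16, n = 25). The intervals of the shares in those cells overlapped (26.5% and 16%). In the same cells *Suz12* was higher in old by 0.99 and *Eed* by 0.35, compared with 0.35 and −0.37 over all cells used, while *Cbx7* and *Rnf2* differed by −1.10 and −0.80. The median difference over all genes in those cells was 0.06. In the same cells 11.8% of all genes were higher by at least 1 in old and 6.28% lower, beside 6.24% and 6.98% over all cells used. Young cells with a cycle transcript also expressed more genes (median 4614) than those without (3862), which was not the case in old cells (3760 and 3939).

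Across cells of 1 age, *Ezh2* followed the S-phase score, the mean log2(CPM + 1) of 42 S-phase genes that do not include it. Pearson's r was 0.72 over the 52 young cells (Spearman's rho 0.65) and 0.35 over the 62 old cells (rho 0.25). This placed *Ezh2* at place 8 in young and 435 in old cells among 9291 genes, a ranking that left out the genes of the S-phase and G2/M lists. The number of genes expressed in a cell also went with the *Ezh2* level (r = 0.58 in young and 0.27 in old), and the partial r given that number was 0.58 in young and 0.25 in old cells. A score above 4, a limit chosen after the values were seen, set apart 11 young and 6 old cells, of which 10 and 5 expressed *Ezh2*, at mean levels of 7.19 ± 2.91 and 5.70 ± 3.32. Among the other cells, r was 0.58 in 41 young cells but 0.00 in 56 old cells, so the relation in old HSCs rested on those 6 cells. In those cells with a score up to 4, 11 of the 41 young and 17 of the 56 old cells expressed *Ezh2*. The mean levels there were 1.45 ± 2.54 and 1.90 ± 2.82.

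**Figure D3:**
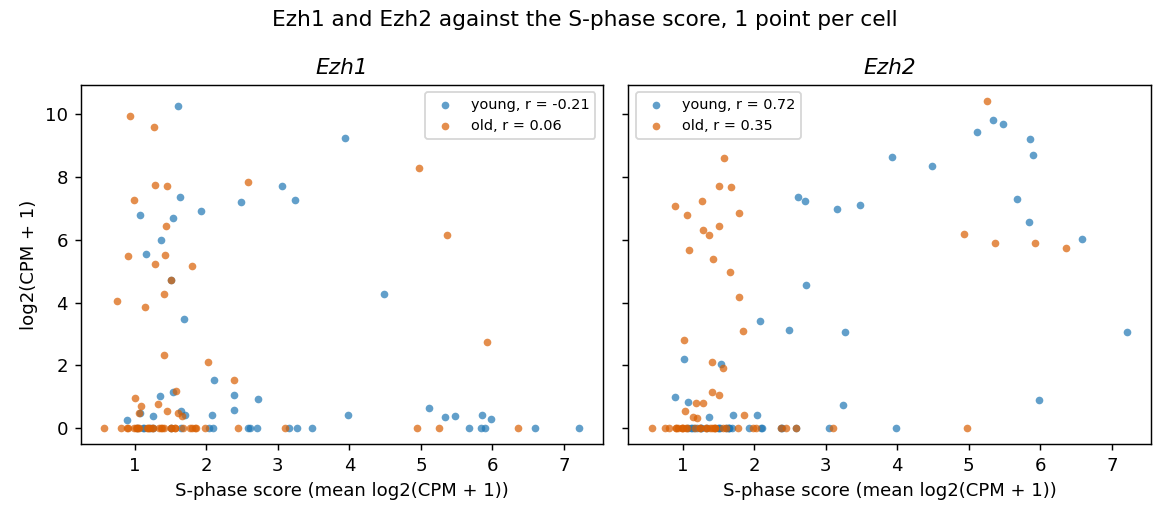
Level of *Ezh1* (left) and *Ezh2* (right) on the log2(CPM + 1) axis against the S-phase score of each cell, with young cells in blue (n = 52) and old cells in orange (n = 62). *Ezh2* is high in nearly all cells with a score above 4 and in some cells of either age with a lower score. Its r is 0.72 in young and 0.35 in old cells, while *Ezh1* has r of −0.21 and 0.06.

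The PRC2 gene with the next highest r in young cells was *Suz12* (r = 0.44, rho = 0.42, place 207 of 9291), with r of 0.20 in old cells, below that of *Eed* (0.23). For *Suz12* the partial r given the number of genes expressed was 0.26 in young and 0.21 in old cells, and among cells with a score up to 4 its r was 0.17 and −0.02, so its relation rested largely on the cells with a high score. It was expressed in 10 of the 11 young and 6 of the 6 old cells with a score above 4, and in 23 of 41 and 36 of 56 of the other cells. The r of *Ezh1* was −0.21 in young and 0.06 in old cells. These correlations are descriptions across cells that share a library preparation and differ in depth, and no p-value is attached to them.

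The promoters of *Ezh2*, *Suz12* and *Ezh1* are shown because the first pair had the highest r with the S-phase score of the 10 genes in young cells and *Ezh1* the lowest. The letters TTTCCCGC, TTTGGCGC, TTTCGCGC and TTTGCCGC, which are forms of the site bound by the E2F factors of S-phase entry, were searched on both strands in the RefSeq windows from 250 bases before to 50 bases after each start on GRCm38.p6, and no 2 of these forms overlapped in the windows shown. Any of them was present in 744 of 32851 promoters (2.26%), and in 2 of the 11 windows of the 10 Polycomb group genes, those of *Ezh2* and *Suz12*. The windows are printed 5′ to 3′ up to 30 bases after the start, with the matched letters in capitals, for *Ezh2* at chr6:47595001-47595280 (minus strand), *Suz12* at chr11:79992856-79993135 (plus strand) and *Ezh1* at chr11:101226434-101226713 (minus strand).
Ezh2: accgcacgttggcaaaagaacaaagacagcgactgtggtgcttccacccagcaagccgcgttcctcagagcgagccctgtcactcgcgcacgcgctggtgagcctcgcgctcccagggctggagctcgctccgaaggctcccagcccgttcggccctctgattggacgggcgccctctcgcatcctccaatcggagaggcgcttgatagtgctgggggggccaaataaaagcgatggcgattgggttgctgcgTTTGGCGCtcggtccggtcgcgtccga
Suz12: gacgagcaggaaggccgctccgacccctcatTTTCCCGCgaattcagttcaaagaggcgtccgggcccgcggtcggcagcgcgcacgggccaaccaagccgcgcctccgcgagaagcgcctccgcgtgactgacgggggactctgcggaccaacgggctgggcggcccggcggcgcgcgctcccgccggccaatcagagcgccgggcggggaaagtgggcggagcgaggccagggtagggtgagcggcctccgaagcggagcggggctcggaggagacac
Ezh1: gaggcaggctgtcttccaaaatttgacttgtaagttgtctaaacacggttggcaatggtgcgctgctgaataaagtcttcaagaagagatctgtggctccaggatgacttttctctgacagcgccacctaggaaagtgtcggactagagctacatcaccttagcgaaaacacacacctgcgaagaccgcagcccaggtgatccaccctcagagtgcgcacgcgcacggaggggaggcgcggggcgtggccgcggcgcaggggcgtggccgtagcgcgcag
In *Ezh2* the match TTTGGCGC, held by 0.514% of all promoters, began at base 4 counted with the start as base 1, and in *Suz12* the match TTTCCCGC, held by 1.07%, began 219 bases before it. The *Ezh1* window held none of the 4 forms. A match of letters is a description and does not show that a factor was bound. The 11 windows were rich in CpG, with a median of 24 CpG (13 to 41) and a GC content of 64.3%, beside 7 and 52.7% over all promoters. The shares of promoters with a match given above are therefore not from windows of like composition, and such a matched share was not counted.

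The obligatory partners *Eed* and *Suz12* differed in how widely they were detected. *Eed* (chr7:89954654-89980976) ranged from 0 to 11.23 with a median of 0.38 in young cells and from 0 to 10.66 with a median of 0.00 in old cells. Expressing cells numbered 15 in young HSCs (28.8%, 95% interval 17.1 to 43.1) and 17 in old (27.4%, 16.9 to 40.2), at mean levels of 1.96 ± 3.16 and 1.59 ± 2.39. The summed reads of *Eed* were 23628 in young and 4425 in old cells, but 1 cell held 39.1% of them in young and 1 cell 67.1% in old, and the log2 ratio of sums scaled to the summed totals (−2.21) was far from the difference of means (−0.37). *Suz12* (chr11:79993106-80034123) ranged from 0 to 10.57 with a median of 3.26 in young cells and from 0 to 10.74 with a median of 5.03 in old cells. It was expressed in 33 young cells (63.5%, 48.96 to 76.4) and 42 old cells (67.7%, 54.7 to 79.1), at mean levels of 4.12 ± 3.48 and 4.48 ± 3.41. Both genes thus had overlapping values in young and old HSCs, with *Suz12* in more than 50% of the cells of either age. Exons of *Ezh2*, *Eed* and *Suz12* share 92, 261 and 178 bases with antisense genes that the table does not list (*Gm26625*, *E230029C05Rik* and *Gm26563*), and since no source states whether strand was used in counting, reads from those stretches cannot be told apart.

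*Jarid2*, whose product helps PRC2 to reach its target genes, was as widely detected as *Suz12*. It lies at chr13:44730774-44921643 and ranged from 0 to 11.10 with a median of 5.68 in young cells and from 0 to 10.38 with a median of 3.69 in old cells. Expressing cells made up 33 of the young (63.5%, 48.96 to 76.4) and 38 of the old cells (61.3%, 48.1 to 73.4), at mean levels of 4.54 ± 3.57 and 4.07 ± 3.55. The difference of −0.47 was smaller than the spread over cells. Transcripts of the whole catalytic core, meaning *Eed*, *Suz12* and at least 1 of *Ezh1* and *Ezh2*, were expressed together in 8 young cells (15.4%, 6.88 to 28.1) and 9 old cells (14.5%, 6.86 to 25.8). With at least 1 read in place of the limit for an expressing cell, the core was found in 23 young and 19 old cells.

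Of the PRC1 genes, *Rnf2*, the more widely detected of the ubiquitin ligases, was expressed in 16 young cells (30.8%, 18.7 to 45.1) and 17 old cells (27.4%, 16.9 to 40.2). *Rnf2* (chr1:151469398-151500991) ranged from 0 to 11.27 with a median of 0.65 in young cells and from 0 to 11.49 with a median of 0.47 in old cells. Its mean level was 2.47 ± 3.62 in young and 2.36 ± 3.63 in old cells, and the 2 ages overlapped over the whole range. *Ring1* (chr17:34020792-34024680), its paralogue, was expressed in 1 young cell (1.92%, 0.049 to 10.3) at 5.66 and in 5 old cells (8.06%, 2.67 to 17.8) at up to 7.02. Only 2 young and 5 old cells had any read of *Ring1*, and 133 of the 134 young reads came from 1 cell. At this depth a difference in *Ring1* between ages was not detectable. In the 21 cells outside the quality limits, 3 more young cells expressed *Ring1*, which brought the counts to 4 of 61 and 5 of 74. No young cell and 1 old cell expressed both ligases.

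*Bmi1*, which encodes the PCGF subunit best known from HSC self-renewal, was nearly equal between ages. It lies at chr2:18677018-18686629 and ranged from 0 to 9.94 in young and from 0 to 11.12 in old cells, with a median of 0.00 in both. It was expressed in 16 young cells (30.8%, 18.7 to 45.1) and 17 old cells (27.4%, 16.9 to 40.2), at mean levels of 1.99 ± 3.04 and 2.01 ± 3.19. *Bmi1* and a ligase gene (*Ring1* or *Rnf2*) were expressed together in 5 young and 6 old cells. *Cbx7* (chr15:79915804-79971143), the chromobox gene, ranged from 0 to 10.40 with a median of 2.20 in young cells and from 0 to 10.99 with a median of 0.88 in old cells. Cells above the limit were 26 in young HSCs (50%, 35.8 to 64.2) and 23 in old (37.1%, 25.2 to 50.3), at mean levels of 2.33 ± 2.61 and 2.01 ± 2.51. Among its expressing cells the median level was only 4.06 in young and 4.47 in old, and 1 cell of each age held 59.01% and 72.2% of all its reads. *Cbx7* was thus detected in many cells at modest levels, with the ages overlapping.

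*Asxl1* had the largest difference of the 10 genes in mean log2(CPM + 1), although by summed reads the log2 ratio of *Eed* (−2.21) was slightly larger than that of *Asxl1* (−2.18), and *Ring1*, with few expressing cells, was at 2.26. It lies at chr2:153345830-153404007 and ranged from 0 to 10.64 with a median of 1.76 in young cells and from 0 to 9.60 with a median of 0.00 in old cells. In young HSCs 25 of the 52 cells expressed it (48.1%, 34.01 to 62.4), and in old HSCs 15 of the 62 (24.2%, 14.2 to 36.7). The mean level was 3.59 ± 3.92 in young and 1.71 ± 2.89 in old cells, a difference of −1.88 that was the 58th lowest of 9374 genes. No read of it was counted in 17 of the 52 young and 36 of the 62 old cells, and the upper values of both ages overlapped. Among expressing cells alone the mean was 7.07 in young and 6.38 in old, a difference of −0.69. The summed reads were 25030 in young and 4774 in old cells, with no more than 16.9% and 29.95% of them from 1 cell.

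The lower *Asxl1* level in old HSCs was present in each set of cells examined. The difference was −1.58 over all 61 young and 74 old cells, −1.40 among cells with none of the 4 cycle transcripts, −1.80 after thinning every cell to 250000 reads and between −2.01 and −1.75 when each cell was left out in turn. With a pseudocount of 0.1 CPM it was −2.70. After thinning, 25 young and 16 old cells expressed the gene. *Asxl1* has long exons (6984 bases in sum). Among the 2240 genes with the longest exons, out of 8958 with a known length, 7.41% were lower by at least 1. The share was 6.98% over all 9374 genes, and whether exon length has a part in the *Asxl1* difference was not tested. Whether the difference belongs to age or to this pair of mice cannot be told apart.

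Levels of the 10 genes were only weakly correlated with each other across cells. A young cell expressed a median of 4 of them (range 1 to 7) and an old cell a median of 3 (range 0 to 7), with means of 3.85 ± 1.43 and 3.48 ± 1.59. This number went with the number of all genes expressed in the cell (r = 0.50 in young and 0.42 in old). Over the 45 pairs, Pearson's r between levels ranged from −0.39 (*Rnf2* and *Asxl1*) to 0.41 (*Ezh2* and *Suz12*) in young cells, with a median of −0.06. In old cells it ranged from −0.24 (*Jarid2* and *Rnf2*) to 0.25 (*Bmi1* and *Cbx7*), with a median of 0.04. Of the 45 pairs, 6 had an r above 0.2 in young cells and 2 in old cells, and 3 in each age were below −0.2. No pair had an r above 0.2 in both ages, also within a complex. *Ezh2* and *Suz12* of PRC2 were at 0.41 in young and 0.14 in old cells, and *Ezh2* and *Eed* at 0.23 and −0.04. The same counts were not made for pairs of other genes, and undetected transcripts limit what these r can show.

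**Figure D4:**
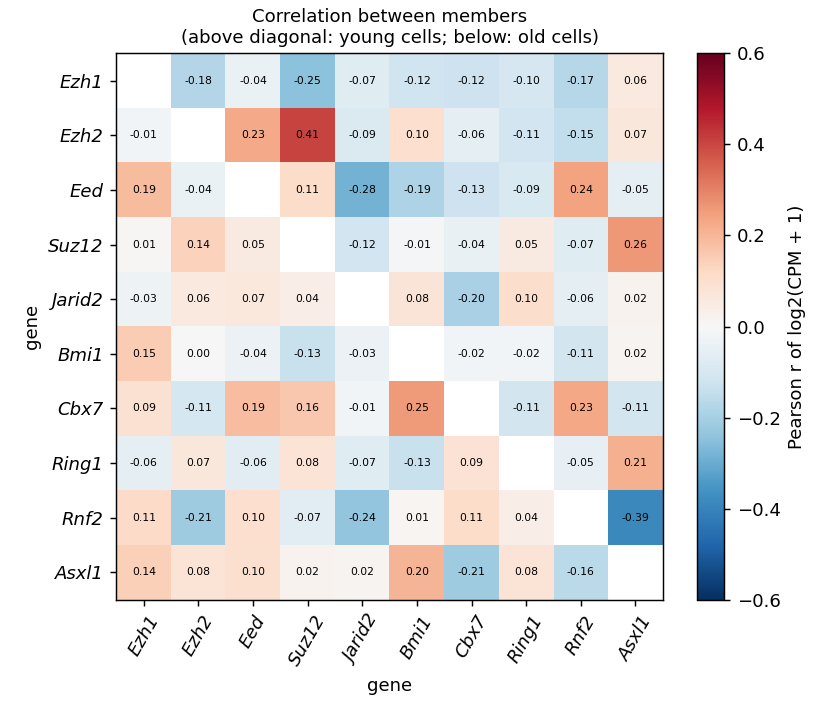
Pearson's r of log2(CPM + 1) between each pair of Polycomb group genes across cells, above the diagonal for young cells (n = 52) and below it for old cells (n = 62), from blue (negative) to red (positive). Most squares are pale, the highest value in young cells is 0.41 for *Ezh2* and *Suz12*, and 0 of 45 pairs exceed 0.2 in both ages.

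The likeness of other expressed genes to each of the 10 was taken as the mean of the r within young and within old cells, over 9373 genes. The 5 most like *Ezh2* were *Tk1*, thymidine kinase (0.57), *Uhrf1*, which maintains DNA methylation through replication (0.54), *Ncapg2*, a condensin subunit (0.53), *Pbk*, a mitotic kinase (0.52), and *Top2a*, topoisomerase II alpha (0.51). Of these, *Uhrf1* is in the S-phase list and *Top2a* in the G2/M list, and no enrichment was tested. *Tk1* was expressed in 17 young and 9 old cells, of which 14 and 8 also expressed *Ezh2*. The gene most like each of the other members had a likeness between 0.32 and 0.51, namely *2900092D14Rik* for *Ezh1* (0.43), *Exoc5* for *Eed* (0.37), *Dctpp1* for *Suz12* (0.40), *Bace1* for *Jarid2* (0.36), *Ipo7* for *Bmi1* (0.34), *Gpr108* for *Cbx7* (0.32), *Thrb* for *Ring1* (0.51), *Slc39a8* for *Rnf2* (0.50) and *Isy1* for *Asxl1* (0.42). The value for *Thrb* rested on 1 young cell that expressed it with *Ring1*, and that for *Slc39a8* on 7 young and 3 old cells.

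Of 34 other genes of the complexes in the table, 27 passed the limit of 10% of expressing cells, 2 were higher by at least 1 in old HSCs and 3 were lower, and their median difference was −0.01, beside 6.24% higher, 6.98% lower and a median of −0.07 over the 9374 genes. In the list of PRC2 subunits, *Rbbp4* and *Rbbp7*, histone-binding proteins that also belong to other chromatin complexes, were widely detected and lower in old. *Rbbp4* ranged from 0.23 to 10.92 in young and from 0 to 10.58 in old cells, was expressed by 47 young and 46 old cells, and had means of 6.34 and 4.97. *Rbbp7*, which lies on the X chromosome, was expressed in 47 and 44 cells with means of 6.87 and 5.50. *Mtf2*, a Polycomb-like protein that brings PRC2 to CpG islands, was higher in old, expressed in 30 and 42 cells with means of 4.15 and 5.33. These 3 were the genes at or beyond 1 among the 7 of that list in the table, whose median difference was −0.53.

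Among 21 other PRC1 genes, 15 of them expressed in at least 10% of the cells, the median difference was 0.02. Of the 21, 1 was higher by at least 1 and 0 were lower, beside 6.24% and 6.98% over the 9374 genes. *Phc3*, a Polyhomeotic subunit, was expressed in 20 young and 34 old cells, with means of 2.18 and 3.37. *Mga*, a subunit of a variant PRC1, was expressed by all 52 young cells and 61 of the 62 old cells, with means of 7.07 and 6.49. Of 6 other PR-DUB genes, 0 were higher and 1 was lower by at least 1, beside the same shares, with a median difference of 0.01. The lower gene was *Foxk2*, a forkhead factor, expressed in 13 young and 3 old cells with means of 1.55 and 0.16. *Ogt*, the O-GlcNAc transferase that binds the complex, was expressed in 48 and 56 cells (means of 7.28 and 7.46), and *Asxl2*, the paralogue of *Asxl1*, in 46 and 58 cells (means of 5.01 and 5.21). *Asxl2* therefore differed by 0.20 where *Asxl1* differed by −1.88, each within the same cells.

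**Figure D5:**
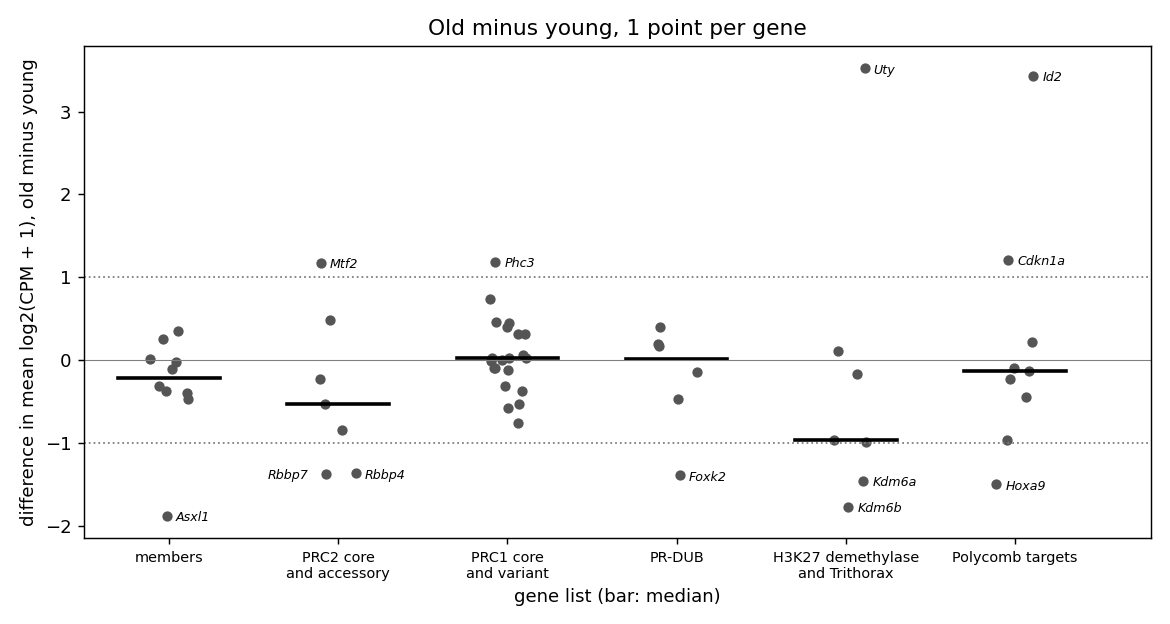
Difference in mean log2(CPM + 1), old (62 cells) minus young (52 cells), with 1 point per gene, for the 10 members and 5 lists of other Polycomb and related genes, the median as a bar and dotted lines at −1 and 1. Most points lie within the dotted lines, and the genes beyond them are named, from *Kdm6b* and *Asxl1* at the bottom to *Uty* and *Id2* at the top.

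The list of H3K27 demethylases and Trithorax genes, which act against Polycomb repression, had a median difference of −0.96 over 7 genes, with 2 genes lower and 1 higher by at least 1, beside −0.07, 6.98% and 6.24% over the 9374 genes. *Kdm6b*, an H3K27 demethylase, was expressed by 51 young (98.1%) and 52 old cells (83.9%), with means of 6.26 and 4.49. *Kdm6a*, an X-linked demethylase, was expressed in 33 and 29 cells with means of 4.23 and 2.77, and *Uty*, its Y-linked relative, in 2 and 34 cells with means of 0.09 and 3.61. The values of *Kdm6a* and *Uty* went with the *Xist* and Y-linked transcripts of the 2 mice, and sex and age cannot be told apart for them. The histone methyltransferases *Kmt2d* and *Kmt2a* were widely expressed, with means of 8.63 and 7.64 for *Kmt2d* and of 5.92 and 6.03 for *Kmt2a*.

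Genes known as Polycomb targets had differences in both directions, with a median difference of −0.13 over the 9 listed in the table, 2 higher and 1 lower by at least 1, beside −0.07, 6.24% and 6.98% over the 9374 genes. *Id2*, an inhibitor of DNA binding that restrains basic helix-loop-helix factors, was expressed by 8 young (15.4%, 6.88 to 28.1) and 35 old cells (56.5%, 43.3 to 69.01), with means of 0.94 and 4.37. *Cdkn1a*, which encodes the cycle inhibitor p21, was expressed in 2 young cells (3.85%, 0.469 to 13.2) and 16 old cells (25.8%, 15.5 to 38.5), with means of 0.33 and 1.54. *Hoxa9* was lower in old, expressed in 26 and 15 cells with means of 3.22 and 1.72, and *Hoxa10*, its neighbour in the cluster, had means of 2.27 and 1.30. *Cdkn1c* (1.86 and 1.73), *Meis1* (9.74 and 9.96) and *Hmga2* (2.84 and 2.39) differed by less than 0.5 in mean level. *Cdkn2a* and *Cdkn2b*, the classical Polycomb targets of the *Ink4a*-*Arf* locus, were not analysed here.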

How the data were processed

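Single-cell RNA sequencing of HSCs from 1 young and 1 old mouse was analysed. Per the study's methods and the labels, the authors aligned single reads of 51 bp against mm10 using TopHat2 2.0.10, kept 1 alignment per read, and deposited raw read counts per RefSeq gene (rpkmforgenes) and cell, without normalization or unique molecular identifiers. Strand use in counting is not given in the sources used here. Capture sites were imaged for single cells, and no doublet caller was run. Of the table's entries, 21 join several genes under one name.

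Cells were kept with at least 500000 mapped reads, at most 10% mitochondrial reads and at least 3000 genes, using the study's quality values. Counts were divided by the cell's total to give CPM, levels were taken as the mean of log2(CPM + 1), and differences as old minus young. A size of 1 on the log2 scale was called, with no test, since cells of 1 mouse are not replicates. Intervals are 95% exact Clopper-Pearson intervals. Reads are not independent molecules, so intervals cover counting error only. Fewer transcripts detected and less RNA per cell cannot be told apart.

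The members and lists were chosen with earlier results of these data known. Named genes were all 10 members, in each related list those at or beyond a difference of 1 (at most 5) and the pair with the highest mean level, targets expressed in at least 10% of the cells with *Cdkn2a* and *Cdkn2b* (both not analysed here), and the genes most like each member. Promoters are from RefSeq on GRCm38.p6, in which all 10 genes matched. Alternatives covered the cells used, pseudocount, summed counts, TMMwsp (edgeR 4.0.16) and poscounts (DESeq2 1.42.0) factors, and thinning. Calculations used R 4.3.3 and Python 3.11.15 with scipy 1.17.1 and numpy 2.4.6. The calculations were tested on simulated data.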

Additional observations from a re-analysis of the deposited data

How the results depend on the processing

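No paired analysis was possible because each age was 1 mouse, the cell numbers only name cells, and no test was made. The median difference of the 10 genes stayed below 0 in every alternative run, from −0.53 (summed counts) to −0.01 (cells with none of the 4 cycle transcripts). It ran from −0.30 to −0.11 when each cell was left out in turn (chosen after seeing the data). In those runs 1 gene was lower and 0 higher by at least 1 throughout. The median over all genes, not taken for summed counts, was also below 0 except in cells with none of the cycle transcripts (0.06). With the cells outside the quality limits included, it was −0.08, below the −0.05 of the 10 genes. In every other run with both medians, that of the 10 genes was the lower. The sign alone is therefore not read as a trait of the 10. The number of genes lower by at least 1 was 2 (*Cbx7* and *Asxl1*) in cells with none of the cycle transcripts, 3 (*Ezh2*, *Eed* and *Asxl1*) by summed counts, and 4 (with *Cbx7*) by summed counts without the cell holding most reads of a gene, an alternative chosen after seeing the data. By summed counts, with or without those cells, 1 gene (*Ring1*) was higher. For summed counts the share of all genes past that size was not counted. The share of all genes higher by at least 1 was 3.91% over all genes with a count, 11.8% in cells with none of the cycle transcripts and 12.3% with a pseudocount of 0.1 CPM, and the share lower was 4.49% over all genes with a count and 15.8% with that pseudocount. The r of *Ezh2* with the S-phase score was 0.65 by Spearman and 0.58 as a partial r in young cells, and 0.25 by either in old cells. The cause of these changes was not tested. Of the alternative values for single genes, 107 differences moved by less than 1.5 times and 13 by more, and the share of expressing cells left its interval 16 times, each time with the limit of at least 1 read.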
